A study of Mus musculus with 18 samples.

Results

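Imprinted genes are read mainly or only from the copy inherited from 1 parent, and many of them set the pace of growth before birth. Genes expressed from the maternal copy tend to hold growth back, and genes expressed from the paternal copy tend to promote it. Most are high in the placenta and fetus and are turned down in adult organs such as the spleen, which filters blood and houses immune cells. The 8 imprinted genes described here are Phlda2, Cdkn1c, Grb10 and Igf2r, expressed from the maternal copy in most tissues, and Igf2, Peg3, Mest and Plagl1, expressed from the paternal copy. They were found by symbol, 8 of the 19320 genes of the deposited spleen expression table. Phlda2 was chosen by its own values in these libraries, since it was known to be past the threshold in the comparison of STZ with Con, and the other genes were added as imprinted genes. Values for Phlda2 in comparisons that use the STZ or Con libraries, and for all members in STZ against Con, are therefore given as a description with no p-value. RNA of the parental copies was not told apart, so the values are totals over both copies.

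Spleen RNA of male ICR mice, an outbred strain, aged 10 weeks, was sequenced in 18 libraries, 3 in each of 6 groups. Con animals were untreated controls given saline. A10 animals were given alginate oligosaccharide, or AOS, a sugar oligomer obtained from seaweed alginate, at 10 mg/kg. STZ animals received a single dose of streptozotocin, a toxin of the insulin-producing beta cells that gives a model of type 1 diabetes, and STZ-A10 animals received STZ and AOS at 10 mg/kg. The A10-FMT and Con-FMT groups received STZ and then a transplant of gut microbiota (FMT), pooled from the small intestines of donors given AOS at 10 mg/kg or of control donors. STZ was thus shared by 4 of the 6 groups, and there was no transplant group without STZ. The A10 and STZ-A10 groups are known from the labels alone. The labels number 3 samples per group without saying that each is a separate animal, and if they are not, the p-values measure only the spread between these samples.

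Values are RPKM, read counts divided by gene length and by the mapped reads of the library, as the authors deposited them. Their steps at low values put the depth at about 11930000 to 13760000 reads per library, an estimate from 1215 genes with 1 annotated transcript. Between 11532 and 12893 genes reached 1 RPKM in a library, and globin took 10.4% to 42.7% of the total RPKM. Differences between groups are differences of mean log2(RPKM + 1), given as log2 fold changes with their standard error (SE). They were tested with limma over the 12905 genes with at least 1 RPKM in at least 3 libraries, with Benjamini-Hochberg adjusted p-values and a threshold of 0.05. B cell, T cell and red pulp macrophage markers, which define the spleen, were present in all 18 libraries, with summed levels of 598 to 2793, 88.4 to 495 and 639 to 1372 RPKM. Sums over 14 digestive enzyme genes of the exocrine pancreas, which lies against the spleen, ran from 24.4 to 23045 RPKM.

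The expression of 7 members reached the level needed for a test. Plagl1, a zinc finger regulator that restrains the cell cycle, was under 1 RPKM in all 18 libraries and was not tested. Phlda2 was under 1 RPKM in 7 libraries, all 6 of Con and A10 and 1 of Con-FMT, so it passed the filter only through the groups given STZ. Peg3 was under 1 RPKM in 12 libraries and passed through STZ and STZ-A10 and 1 Con library. Cdkn1c and Igf2 were each under 1 RPKM only in A10-FMT replicate 3. Igf2r, Grb10 and Mest were above 1 RPKM in every library. By mean RPKM over the 18 libraries, which is a level per length, the order was Grb10 (5.33), Igf2r (5.09), Igf2 (3.90), Mest (2.90), Cdkn1c (2.10), Phlda2 (1.37), Peg3 (1.19) and Plagl1 (0.475).

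The promoters of Phlda2 and Peg3, the members with the widest range between groups, are shown here because the results turn on these genes. Each run holds the 250 bases before the RefSeq start, 5′ to 3′ on the minus strand of GRCm38.p6, at chr7:143502525-143502774 for Phlda2 and chr7:6730420-6730669 for Peg3. Capitals mark TATAAA, the core of the TATA box, in Phlda2 and TGACGTCA, the cyclic AMP response element, in Peg3.
Phlda2: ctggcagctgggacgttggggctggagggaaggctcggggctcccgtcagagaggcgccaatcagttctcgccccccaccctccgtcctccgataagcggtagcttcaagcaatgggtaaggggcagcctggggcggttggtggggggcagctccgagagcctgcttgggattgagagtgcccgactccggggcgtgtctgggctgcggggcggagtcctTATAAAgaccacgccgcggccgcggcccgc
Peg3: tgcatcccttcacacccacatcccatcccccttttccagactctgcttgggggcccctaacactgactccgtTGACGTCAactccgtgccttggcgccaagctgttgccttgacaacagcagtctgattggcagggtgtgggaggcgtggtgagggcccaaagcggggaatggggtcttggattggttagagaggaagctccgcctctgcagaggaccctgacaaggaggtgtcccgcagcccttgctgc
The Phlda2 gene as annotated by GENCODE reaches farther upstream, to base 143503150. TATAAA began 30 bases before the RefSeq start of Phlda2 and was found, on either strand, in 12.4% of 32851 promoters of the same length. TGACGTCA, which reads the same on both strands, began 178 bases before the start of Peg3 and was found in 1.55% of them. The Phlda2 promoter held 21 CG dinucleotides, more than 83.7% of all promoters, against 8 for Peg3 and a median of 6. Of the other letters searched on both strands, GGGCGG, the GC box, was in 32.7% of promoters, including at least 1 promoter of Phlda2, Igf2, Igf2r, Grb10, Plagl1 and Mest. CACGTG, the E-box, was in 6.02%, including Igf2r and Plagl1. The letters in capitals overlap none of the other motifs. RefSeq promoters matched 7 of the 8 members, all but Cdkn1c.

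**Figure D1:**
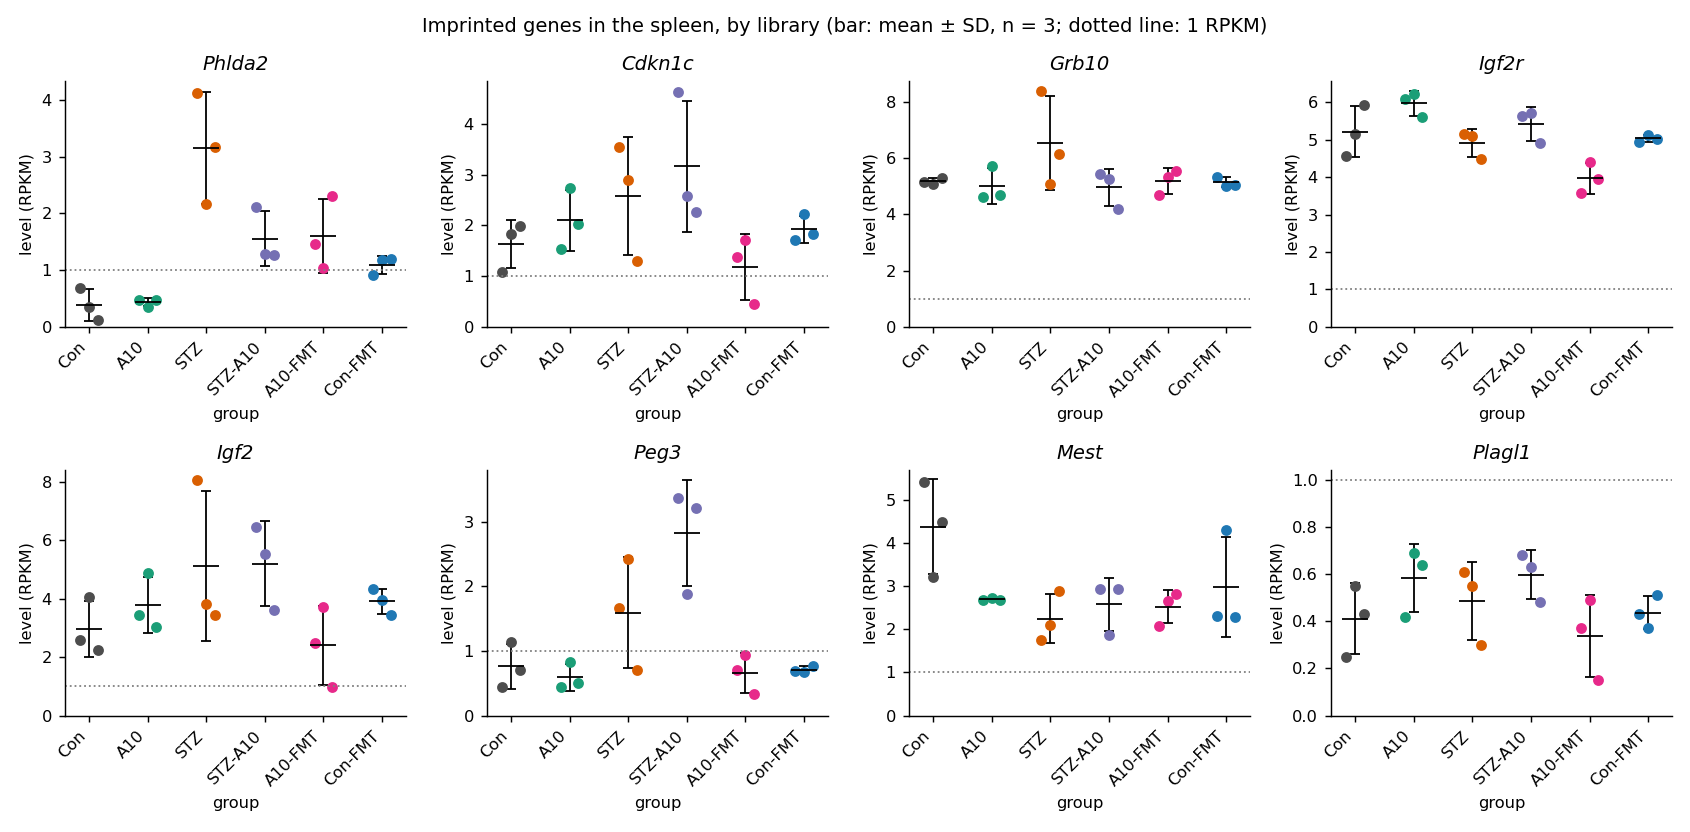
Levels of the 8 imprinted genes in RPKM (vertical axis, linear from 0) in each library of the 6 groups (horizontal axis). Points are libraries, the bar is the mean ± SD of 3 libraries, and the dotted line is 1 RPKM. Phlda2 was under 1 RPKM in all Con and A10 libraries, Peg3 was highest in STZ-A10, Mest was highest in Con, and Plagl1 stayed under 1 RPKM throughout.

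Phlda2 encodes a small pleckstrin homology domain protein that restrains growth of the placenta. The gene lies at chr7:143501545-143503150 on the minus strand (GENCODE M21, GRCm38) and overlaps no other annotated gene. In Con its level was 0.68, 0.35 and 0.12 RPKM in replicates 1, 2 and 3. In A10 it was 0.48, 0.35 and 0.47 RPKM, within the Con range. STZ held 4.12, 2.16 and 3.18 RPKM, and no STZ library came near those of Con. STZ-A10 held 2.11, 1.29 and 1.26 RPKM, each under every STZ library and above every A10 library. A10-FMT held 1.46, 1.03 and 2.31 RPKM, and its highest library lay above the lowest STZ library. Con-FMT held 0.91, 1.17 and 1.19 RPKM, all under the STZ libraries.

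Group means placed Phlda2 in the order STZ (3.15 ± 0.980 RPKM, SD, n = 3), A10-FMT (1.60 ± 0.651), STZ-A10 (1.55 ± 0.482), Con-FMT (1.09 ± 0.156), A10 (0.433 ± 0.0723) and Con (0.383 ± 0.281). STZ and A10-FMT overlapped, as did A10-FMT and STZ-A10, and A10 and Con. Con-FMT lay under every STZ-A10 library, with the nearest libraries at 1.19 and 1.26 RPKM, and above every A10 library. The low values rest on few reads. With the longest annotated transcript, of 757 bases, the estimates were 7, 3 and 1 reads in Con and 4, 3 and 4 in A10, against 38, 21 and 32 in STZ, 20, 12 and 12 in STZ-A10, 15, 10 and 24 in A10-FMT and 9, 11 and 11 in Con-FMT. In bulk RNA, more cells that express Phlda2 and more RNA per cell cannot be told apart.

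STZ against Con shows the spleen with and without STZ, and it is the comparison that chose Phlda2. Diabetes and direct effects of STZ cannot be told apart in this design. Its mean was 8.23 times as high in STZ as in Con, and its log2 fold change was 1.58 (SE 0.209). Because of the low Con level that value depends on the constant added before the logarithm, and it was 2.89 with 0.1 in place of 1. Phlda2 was called, which was known when it was chosen, so its call is no result about the members. None of the other tested members was called, where 0.163% of all genes tested were. Without Con replicate 2 or in a fit of those 2 groups alone, 0 members were called. The libraries of the groups did not overlap for 2 of 7 members, where 12.8% of all genes did not overlap. They were Phlda2 (higher in STZ), which counts here by its choice, and Mest (lower).

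The same question was asked in animals given AOS, STZ-A10 against A10. The group means there come from libraries that did not choose Phlda2, while the SE is estimated from all 18 libraries, STZ and Con included. Phlda2 was 1.55 ± 0.482 RPKM in STZ-A10 and 0.433 ± 0.0723 in A10, a log2 fold change of 0.82 (SE 0.209). It was higher in 3 of 3 libraries and did not pass the threshold (adjusted p 0.137), and the adjusted p ran from 0.0741, in a fit of those 2 groups alone, to 0.399 over the alternatives tried. STZ-A10 was among the groups through which Phlda2 passed the filter, and with no filter on low values the adjusted p was 0.145. The pancreatic enzyme sum was 6727 to 10640 RPKM in STZ-A10 and 46.9 to 719 in A10, and its r with Phlda2 over the 18 libraries was 0.55 on the log2 scale, and 0.07 within groups. The adipose marker sum was 34.7 to 109 RPKM in STZ-A10 and 143 to 446 in A10 (r -0.74, within groups -0.25), and the platelet sum 503 to 798 and 773 to 1189 (r -0.68, within groups 0.14). The part of these cells in the Phlda2 values was not tested. With 0.1 added before the logarithm its log2 fold change was 1.60. None of the 7 members tested passed in this comparison, where 0.0542% of all genes were called and 1317 genes had an unadjusted p under 0.05. The groups did not overlap for 2 of 7 members, Phlda2 and Peg3, both higher in STZ-A10, against 22.6% of all genes.

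Over more groups, all 9 libraries of STZ-A10, A10-FMT and Con-FMT lay above the 3 of A10 for Phlda2, the lowest at 0.91 and the highest A10 library at 0.48 RPKM. That held for 1.05% of genes tested and for no other member. Phlda2 was among the genes tested only through libraries given STZ, so the separation draws on values that let it pass the filter and is a description. All 12 libraries given STZ lay above the 6 without it (highest 0.68 RPKM) for 17 genes, 0.132%. Phlda2 was among them, with Ier3, Car1, Cish and Hif3a, but the STZ and Con libraries that chose it are part of that count.

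Among the groups given STZ, Phlda2 was lower than in STZ alone by the values already listed. The log2 fold change was -0.69 (SE 0.209) in STZ-A10 against STZ, -0.68 in A10-FMT against STZ and -0.97 in Con-FMT against STZ, with the same SE. These comparisons share the STZ libraries, whose high values chose the gene, so they carry no p-value. The transplants were compared with each other, with means from libraries outside that choice and the SE again from all 18. Phlda2 was 1.60 ± 0.651 RPKM in A10-FMT and 1.09 ± 0.156 in Con-FMT, with overlapping libraries and a difference of 0.29 on the log2 scale (SE 0.209, adjusted p 0.350), and with the adjusted p at 0.382 in a fit of those 2 groups alone. A10-FMT replicate 3 held the highest value, and without it the log2 fold change was 0.10.

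**Figure D2:**
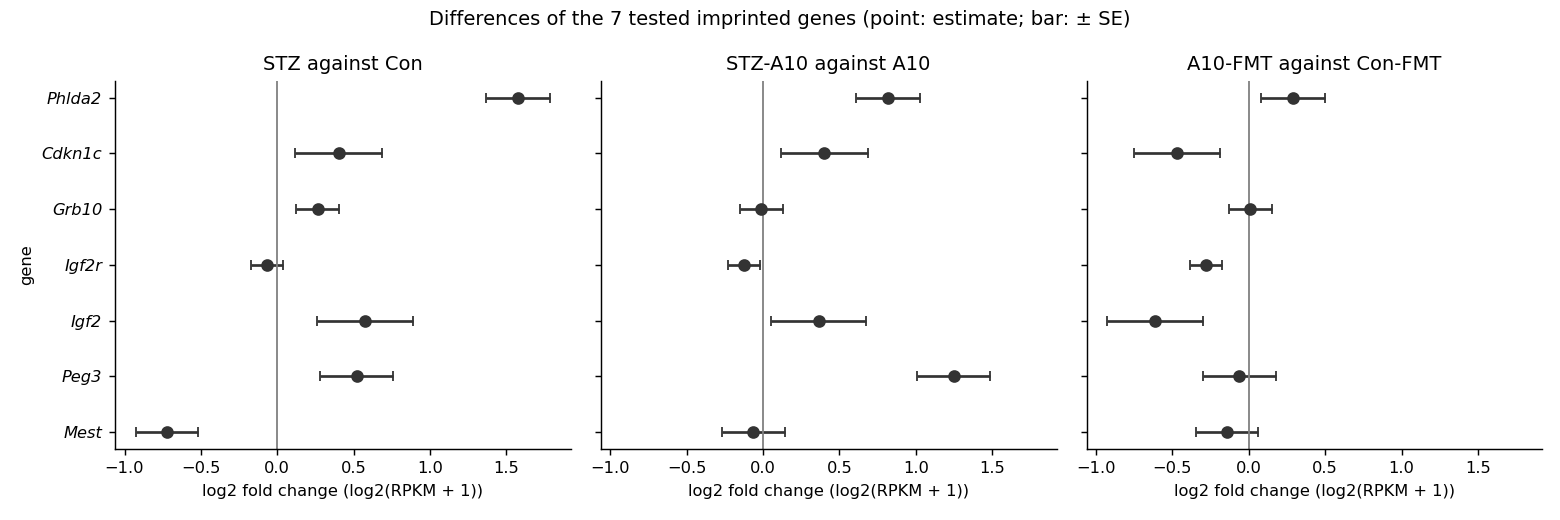
Log2 fold changes of the 7 tested members on the log2(RPKM + 1) scale (horizontal axis, bars ± SE from the fit of 18 libraries) for STZ against Con, STZ-A10 against A10 and A10-FMT against Con-FMT. Phlda2 lay at 1.58, 0.82 and 0.29, and Peg3 at 0.52, 1.25 and close to 0.

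Phlda2 sits in the distal imprinted cluster of chromosome 7, and its neighbours were read beside it. Cdkn1c and Slc22a18, a membrane transporter gene, start 42.1 and 29.4 kb away on one side, and Nap1l4, a histone chaperone gene, and Cars, which encodes cysteinyl-tRNA synthetase, 46.0 and 96.9 kb away on the other. Slc22a18 stayed at 0.19 to 0.81 RPKM over the 18 libraries and was not tested, with group means of 0.463 in Con and 0.697 in STZ. Nap1l4 held 66.93 to 92.98 RPKM. Cars was 17.9 ± 2.32 RPKM in Con and 24.8 ± 1.72 in STZ, without overlap, but 17.4 ± 1.20 in A10 and 18.2 ± 1.82 in STZ-A10, with overlap. Of 17 genes listed for the cluster, 15 were in the table and 10 were tested. None of the 9 tested neighbours was called in any comparison, where 0% to 0.163% of all genes were. In STZ-A10 against A10 the log2 fold changes of the 10 ran from -0.30 (Tspan32) to 0.82 (Phlda2), with a median of 0.07 against -0.03 over all genes.

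Farther off in the cluster, Osbpl5 was at 3.39 to 11.11 RPKM, Cd81, a tetraspanin of B cells, at 86.18 to 170.25, Tssc4 at 18.63 to 29.06 and Tspan32, a tetraspanin of blood cells, at 30.78 to 72.03. Kcnq1, Ascl2, Trpm5 and Th reached at most 0.50, 0.72, 0.38 and 0.04 RPKM and were not tested. Ins2, an insulin gene next to Igf2, was listed at 0 in all 12 libraries without a transplant and was 0.21, 19.97 and 1.58 RPKM in A10-FMT and 2.26, 1.72 and 0.22 in Con-FMT. The highest Ins2 value was in A10-FMT replicate 2, the library with the highest pancreatic enzyme sum (23045 RPKM). The part of pancreatic RNA in these Ins2 values was not tested.

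**Figure D3:**
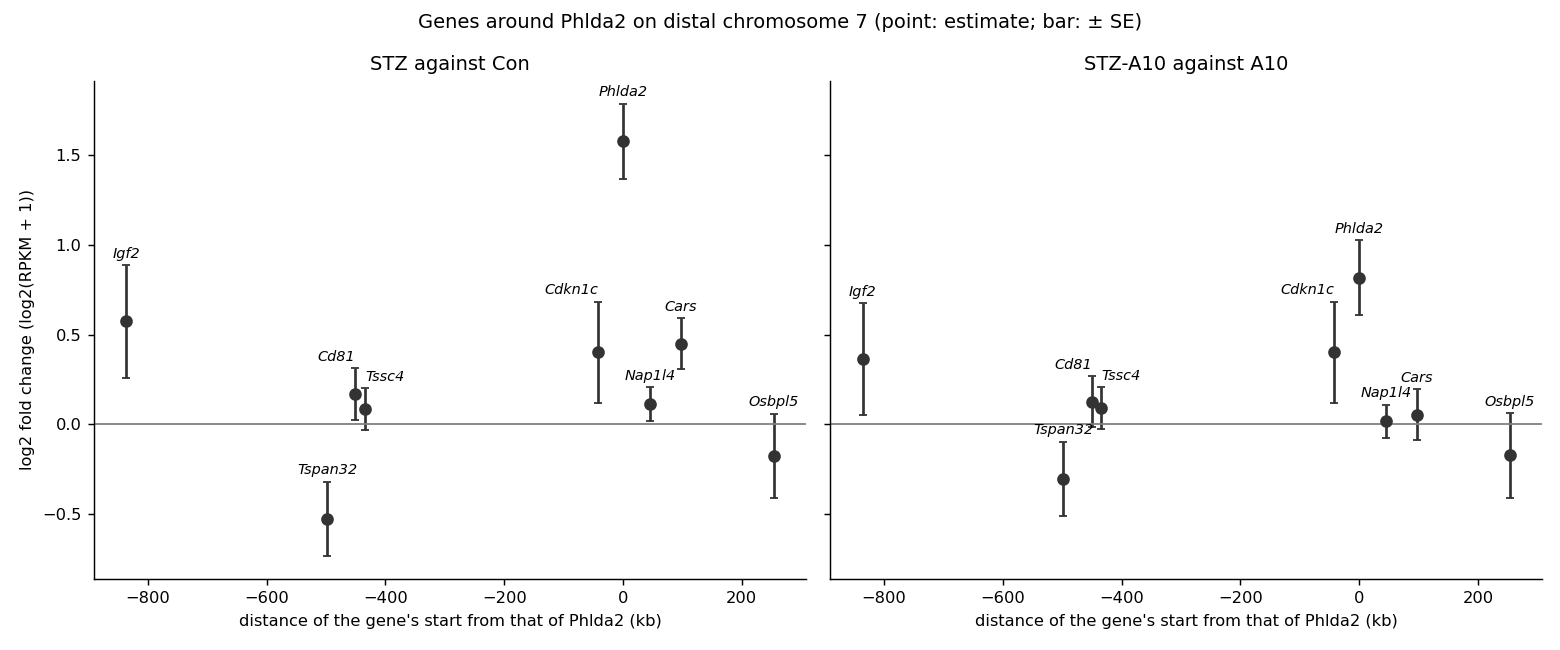
Log2 fold changes on the log2(RPKM + 1) scale (vertical axis, bars ± SE) of the tested genes of the distal chromosome 7 cluster by the distance of their start from that of Phlda2 in kb (horizontal axis), for STZ against Con and STZ-A10 against A10. Ins2, listed at 0 in these 4 groups, is left out. Phlda2 stood highest in both panels, and its nearest tested neighbours Cdkn1c and Nap1l4 lay at 0.40 and 0.11 in the first panel.

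Cdkn1c encodes p57, an inhibitor of cyclin-dependent kinases that holds cells out of the cycle. It lies at chr7:143458339-143461050 on the minus strand, with 1 gene model annotated on the opposite strand. Its level was 1.09, 1.83 and 1.99 RPKM in Con, 1.53, 2.74 and 2.03 in A10, 3.55, 2.90 and 1.30 in STZ and 4.64, 2.59 and 2.27 in STZ-A10. In A10-FMT it was 1.37, 1.71 and 0.45 RPKM and in Con-FMT 1.72, 2.23 and 1.83. STZ-A10 had the highest mean (3.17 RPKM) and A10-FMT the lowest (1.18), and groups next to each other in the order of means overlapped. Its log2 fold change was 0.40 (SE 0.283) in STZ against Con and 0.40 (adjusted p 0.705) in STZ-A10 against A10. It was -0.47 (adjusted p 0.274) in A10-FMT against Con-FMT, where the libraries did not overlap, and -0.20 without A10-FMT replicate 3.

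Grb10 encodes an adaptor that binds the insulin and IGF1 receptors and dampens their signal. It lies at chr11:11930508-12038683 on the minus strand and was the steadiest member, with a highest group mean 1.32 times the lowest. Its level was 5.14, 5.09 and 5.29 RPKM in Con and 8.37, 5.08 and 6.15 in STZ, with STZ replicate 1 the highest of all 18 libraries. The other groups ran from 4.20 to 5.73 RPKM and overlapped with each other. STZ stood 0.26 (SE 0.140) above Con on the log2 scale, and 0.10 without STZ replicate 1. In STZ-A10 against STZ it was -0.32 (SE 0.140, adjusted p 0.996).

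Igf2r encodes the mannose 6-phosphate receptor, which takes up IGF2 and sends it to the lysosome. It lies at chr17:12682406-12769664 on the minus strand and overlaps Airn, an imprinted RNA of the opposite strand. The library protocol did not mark the strand, so reads of Igf2r and Airn cannot be told apart where they overlap. The same limit holds for Cdkn1c, Igf2, Plagl1 and Mest, which also overlap a gene annotated on the opposite strand. Igf2r was 4.56, 5.15 and 5.92 RPKM in Con, 6.10, 6.22 and 5.60 in A10, 5.16, 5.10 and 4.48 in STZ and 5.62, 5.72 and 4.90 in STZ-A10. It was 3.57, 4.40 and 3.95 RPKM in A10-FMT, under all libraries of the other groups, and 4.94, 5.13 and 5.03 in Con-FMT. The log2 fold change of A10-FMT against Con-FMT was -0.28 (SE 0.105, adjusted p 0.204). The median of all genes in that comparison was -0.17, and after each library was centred on its median Igf2r stood at -0.11. Without A10-FMT replicate 2 its adjusted p was 0.0492, with a log2 fold change of -0.34 and 2625 of 12891 genes called in all.

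Igf2 encodes insulin-like growth factor 2, the main fetal growth factor of the family. It lies at chr7:142650766-142666816 on the minus strand, where 3 further genes are annotated, 1 of them the opposite-strand RNA Igf2os. Its level was 2.59, 4.07 and 2.24 RPKM in Con, 3.46, 4.88 and 3.03 in A10, 8.07, 3.81 and 3.46 in STZ and 6.47, 5.54 and 3.61 in STZ-A10. It was 2.49, 3.72 and 0.99 RPKM in A10-FMT and 4.32, 3.96 and 3.46 in Con-FMT. STZ-A10 and STZ had the highest means (5.21 and 5.11 RPKM) and A10-FMT the lowest (2.40), and groups next to each other in that order overlapped. The log2 fold change was 0.57 (SE 0.312) in STZ against Con, 0.36 (adjusted p 0.777) in STZ-A10 against A10 and -0.61 (SE 0.312, adjusted p 0.228) in A10-FMT against Con-FMT. The last was -0.27 without A10-FMT replicate 3.

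Peg3 encodes a large zinc finger protein that binds DNA and has been tied to growth and maternal behaviour. It lies at chr7:6703892-6730431 on the minus strand, far from the Phlda2 cluster, and overlaps no other annotated gene. Its level was 0.44, 1.13 and 0.71 RPKM in Con and 0.44, 0.83 and 0.50 in A10. STZ held 1.66, 2.42 and 0.70 RPKM, the last within the Con range. STZ-A10 held 3.37, 1.88 and 3.21 RPKM, all above the other groups but for STZ replicate 2. A10-FMT held 0.71, 0.93 and 0.33 RPKM and Con-FMT 0.69, 0.67 and 0.77, no higher than Con. The long transcript gives these values more reads than Phlda2 has, with estimates of 39 to 362 per library.

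The log2 fold change of Peg3 in STZ-A10 against A10 was 1.25 (SE 0.237), from 0.59 ± 0.21 RPKM in A10 to 2.82 ± 0.818 in STZ-A10, the largest of the 7 members, and higher in 3 of 3 libraries. With 0.1 added before the logarithm it was 2.08. It did not pass the threshold (adjusted p 0.0657). It passed after quantile normalization (0.0264), after centring on the library median (adjusted p 0.0421) and in a fit of those 2 groups alone (0.0479), and over all alternatives the adjusted p ran to 0.286. STZ-A10 was among the groups through which Peg3 passed the filter, and in the fit of those 2 groups the only one. With no filter on low values the adjusted p was 0.0641. The value in STZ against Con, whose libraries overlapped, was 0.52 (SE 0.237). In STZ-A10 against STZ it was 0.59 (adjusted p 0.996), in A10-FMT against STZ -0.61 (adjusted p 0.257) and in Con-FMT against STZ -0.54 (adjusted p 0.935). STZ was also among the groups through which Peg3 passed the filter. In fits of STZ with either transplant group alone, Peg3 did not pass the filter and was not tested. The pancreatic enzyme sum was also high in STZ-A10 (6727, 6880 and 10640 RPKM, against 46.9 to 719 in A10). The r of that sum with Peg3 over the 18 libraries was 0.53, and 0.21 within groups. For red pulp macrophage markers r was 0.73 and 0.45, for stromal markers 0.58 and 0.71, and for platelet markers -0.60 and -0.61. The part of pancreatic RNA or of these cells in the Peg3 values was not tested.

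Mest encodes an enzyme of the hydrolase fold found in the endoplasmic reticulum. It lies at chr6:30723547-30748465 on the plus strand and overlaps Copg2 and the gene model Gm44296 on the opposite strand. Their reads and those of Mest cannot be told apart where they overlap, and Copg2 held 9.63 to 16.59 RPKM. The part of Copg2 reads in the Mest values was not tested. Mest was the only member with its highest group mean in Con, with 5.43, 3.23 and 4.49 RPKM there, 2.69, 2.73 and 2.69 in A10 and 1.76, 2.11 and 2.89 in STZ. STZ-A10 held 2.95, 1.87 and 2.93 RPKM, A10-FMT 2.09, 2.66 and 2.83 and Con-FMT 2.31, 4.32 and 2.30. All Con libraries lay above those of A10, STZ, STZ-A10 and A10-FMT, and 1 Con-FMT library reached the Con range. The log2 fold change was -0.72 (SE 0.204) in STZ against Con and -0.52 (SE 0.204, adjusted p 0.791) in A10 against Con. The summed platelet markers were 2196, 1163 and 879 RPKM in Con and 264 to 1189 elsewhere, and the neutrophil progenitor markers 16043, 4381 and 833 RPKM in Con and 427 to 1788 elsewhere. Their r with Mest over the 18 libraries was 0.65 and 0.63, and 0.34 within groups for both, and the part of these cells in Mest was not tested.

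Plagl1, at chr10:13060504-13131694 on the plus strand, ran from 0.15 RPKM in A10-FMT replicate 3 to 0.69 in A10 replicate 2. Its group means lay between 0.337 and 0.597 RPKM, with overlap between Con and every other group.

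The 4 other comparisons that use STZ or Con libraries called none of the 7 members. In A10 against Con, 0 of 7 passed where 0.00775% of all genes were called and 677 had an unadjusted p under 0.05, and 1 of 7 (Mest) did not overlap against 16.5%. In STZ-A10 against STZ, 0 of 7 passed against 0.00775% (378 genes at an unadjusted p under 0.05), and 1 of 7 (Phlda2) did not overlap against 8%. In A10-FMT against STZ, 0 of 7 passed against 0.00775% (2216 genes unadjusted), and 1 of 7 (Igf2r) did not overlap against 14.4%. In Con-FMT against STZ, 0 of 7 passed against 0.00775% (676 genes unadjusted), and 1 of 7 (Phlda2) did not overlap against 13.2%. Phlda2 was chosen by its high values in STZ, so its place in these counts is a description only and no result about the members.

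A10-FMT against STZ had lower values for 6 of the 7 members, in a comparison where only 27.7% of all genes tested had a positive value. Beside Phlda2 and Peg3, the log2 fold change was -0.86 (adjusted p 0.248) for Igf2, -0.71 (adjusted p 0.261) for Cdkn1c and -0.25 (adjusted p 0.269) for Igf2r. The median of all genes was -0.15. After each library was centred on its median the values were -0.69, -0.54 and -0.08. In A10-FMT against Con-FMT, 0 of 7 passed by limma where 0% of genes were called and 3040 had an unadjusted p under 0.05, and 2 of 7 (Cdkn1c and Igf2r) did not overlap against 29.3%. The interaction of STZ and AOS, which asks whether the STZ difference depends on AOS, called 0 of the 6 members other than Phlda2 and 0% of all genes, with 369 genes at an unadjusted p under 0.05.

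A10-FMT replicate 3 held the lowest Cdkn1c, Igf2, Peg3 and Plagl1 of all 18 libraries. The same library held the lowest summed markers of B cells (598 RPKM), T cells (88.4), stroma and fibroblasts (275) and endothelium (54.3), and the highest of erythroid cells and of proliferation (1657). Cdkn1c and the 15 stromal markers moved together over the 18 libraries, with a Pearson r of 0.86 on the log2 scale and 0.92 after group means were removed. For Igf2 and the stromal markers r was 0.75 and 0.73. Other marker sums moved with both genes as well. Within groups, r with endothelium, B cells and T cells was 0.85, 0.74 and 0.73 for Cdkn1c and 0.67, 0.75 and 0.76 for Igf2. With the erythroid sum it was -0.68 and -0.57. Cdkn1c and Igf2 had an r of 0.86 with each other, and 0.75 within groups. These libraries share depth and cell composition between genes, and the part of stromal or other cells in the Cdkn1c and Igf2 values was not tested.

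The genes whose pattern was most like that of Phlda2 over the 18 libraries were Rab4a (r 0.917), Mt2 (0.901), Ankrd13b (0.891), Frat2 (0.879) and Mt1 (0.879). Rab4a encodes a small GTPase of recycling endosomes, and Mt1 and Mt2 encode metallothioneins, which bind zinc and copper. Mt2 was 80.6 ± 23.2 RPKM in Con, 250 ± 63.3 in STZ, 148 ± 19.1 in STZ-A10, 214 ± 133 in A10-FMT and 86.7 ± 13.3 in Con-FMT, with its highest library, 366.77, in A10-FMT replicate 3, where Phlda2 was highest in that group too. The genes most like Peg3 were Klf9 (r 0.946), Klf15 (0.939) and Cntfr (0.938). Klf9 and Klf15 encode transcription factors that glucocorticoids induce, and Cntfr a subunit of the receptor for ciliary neurotrophic factor. Klf9 was 12.63, 7.59 and 8.76 RPKM in STZ-A10 and 8.67, 10.89 and 4.95 in STZ, and STZ replicate 3 was the lowest STZ library for Klf9, Klf15, Cntfr and Peg3 alike. The r within groups was 0.718 for Rab4a, 0.763 for Mt2, 0.613 for Ankrd13b, 0.299 for Frat2 and 0.703 for Mt1, and 0.871, 0.802 and 0.892 for Klf9, Klf15 and Cntfr.

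**Figure D4:**
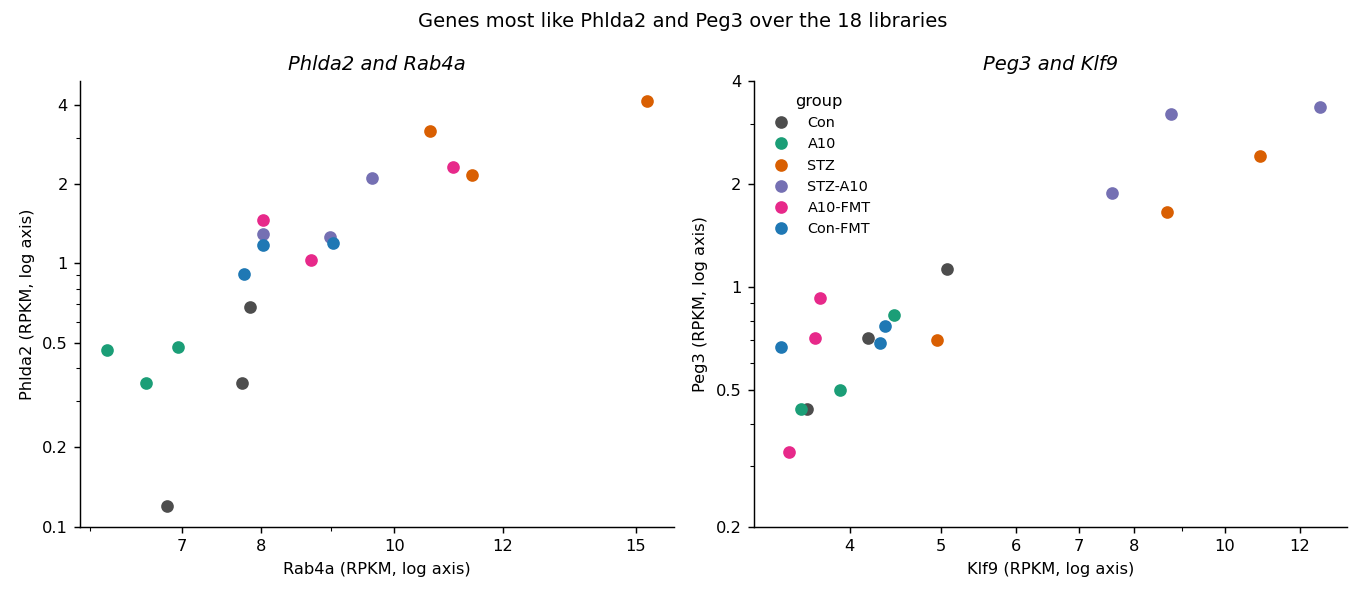
Level of Phlda2 against Rab4a (left) and of Peg3 against Klf9 (right) in RPKM, both axes logarithmic, 1 point per library coloured by group. The STZ libraries lay at the upper right of the Phlda2 panel, and the STZ-A10 libraries with STZ replicates 1 and 2 at the upper right of the Peg3 panel.

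For the other members the likest genes were Tmem200b (r 0.963), Dlg3 and Ppfibp2 for Cdkn1c, Bmp1 (0.931), Scarf2 and Rnf220 for Igf2, Ldlrad4 (0.899), Ly75 and Rbl2 for Igf2r, Gtpbp8 (0.799), Mrps30 and Zfp992 for Grb10, and Megf9 (0.791), Cavin2 and F5 for Mest. Bmp1 encodes a protease that matures collagen.

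Glucocorticoid-induced genes were read from a list of 13, all tested, which was chosen with earlier results of these data known. In STZ against Con 2 passed, Cdkn1a, the kinase inhibitor p21 (log2 fold change 1.06, adjusted p 0.0267), and Per1, a clock gene (1.04, adjusted p 0.0405), and 13 of 13 had a positive value, as did 47.6% of all genes, with a median of 0.76 against -0.01. Neither Cdkn1a nor Per1 passed without Con replicate 2 or in a fit of those 2 groups alone, where 0 of all genes were called. In STZ-A10 against A10 none passed, 13 of 13 had a positive value (42.5% of all genes) with a median of 0.92 against -0.03, and 12 of 13 did not overlap, against 22.6% of all genes. In A10-FMT against STZ 12 and in Con-FMT against STZ 13 had a negative value, with medians of -0.59 and -0.66 and none past the threshold. Of all genes, 27.7% and 50.4% had a positive value in these comparisons, with medians of -0.15 and 0.002. The libraries did not overlap for 7 and 8 of the 13, all lower, against 14.4% and 13.2% of all genes. In STZ against Con they did not overlap for 7 of the 13, against 12.8%. The summed level of the list and Phlda2 had an r of 0.89 over the libraries, and 0.54 within groups. Mt1 and Mt2 made up much of that sum, and over the 11 other genes r was 0.48, and -0.49 within groups. For Peg3 r was 0.60 with all 13, and 0.14 within groups. With the 11 it was 0.80 for Peg3, and 0.52 within groups. The exclusion of Mt1 and Mt2 was chosen after their levels were seen, and the part of glucocorticoids in these values was not tested.

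The nearest relatives of the members did not share one pattern. Phlda1, of the same protein family as Phlda2, was 7.79 RPKM in Con, 5.19 in STZ, 5.13 in A10 and 2.85 in STZ-A10 (group means), and Phlda3, the third of the family, was 6.44, 7.68, 6.10 and 8.07. Neither passed in any comparison. Of the relatives of Cdkn1c, Cdkn1a passed in STZ against Con, as given for the glucocorticoid list, and Cdkn1b stayed between 38.96 and 67.63 RPKM. M6pr, the other mannose 6-phosphate receptor gene, was at 94.38 to 115.22 RPKM and Plagl2 at 12.59 to 19.08. Grb7, Grb14 and Plag1 reached at most 0.91, 0.79 and 0.70 RPKM. Of 9 relatives 6 were tested, and 1 was called in STZ against Con, where 0.163% of all genes were, and 0 in the 7 other comparisons, where 0% to 0.0542% were.

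Of 69 other imprinted genes listed, 59 were in the table and 31 were tested, and 0 passed by limma in any of the 8 comparisons, where 0% to 0.163% of all genes did. Of the 31, 0 to 7 had an unadjusted p under 0.05. Their median log2 fold change was -0.07 in STZ against Con, -0.03 in STZ-A10 against A10 and -0.18 in A10-FMT against Con-FMT, against -0.01, -0.03 and -0.17 over all genes. Gnas, which encodes the stimulatory G protein subunit, was the most abundant at 394 to 562 RPKM, followed by Cd81. Insulin and IGF pathway genes numbered 28 in the table, of which 24 were tested and 0 passed in any comparison (0 to 10 unadjusted), with the most abundant, the binding proteins Igfbp7 and Igfbp3, at 208.92 to 596.89 and 18.89 to 179.08 RPKM. Of 20 factors that maintain imprints 17 were tested and 0 passed in any comparison (0 to 6 unadjusted). The most abundant were Trim28, a corepressor that protects imprints in the embryo, at 65.13 to 90.46 RPKM, and Ctcf, an insulator protein, at 56.04 to 68.02.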

How the data were processed

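Spleen RNA enriched for poly(A) was made into libraries with random-hexamer priming and no step that marks the strand. The authors deposited 1 table of RPKM values. The study's methods name SOAPaligner for placing reads on reference genes, while the submitters' processing notes name Bowtie 0.12.2 and the build mm10, and which of them made the table is not given in the sources used here. The annotation version and gene lengths are not given in the sources used here. All 18 columns were matched to samples by name. Of 19326 lines, 6 that carry 3 repeated names were left out. Groups came from the labels.

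The test was limma (version 3.58.1, R 4.3.3), with its trend option, on log2(RPKM + 1). It was two-sided and used 1 fit of all 18 libraries by group, with no further term. The fold changes understate the change of low genes. The study tested read counts with DEGseq, which needs counts and was not used. The steps of the test were tried on simulated data with known changes. Positions come from GENCODE M21 and promoters from RefSeq (GRCm38.p6), by symbol. Read estimates use the longest GENCODE transcript, cover counting only and may be off where the authors used another length.

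The members and all gene lists were chosen with earlier results of these data known. All 8 members are named. Of a list, the genes past the threshold are named or, with none, the 2 of highest mean RPKM, and the genes of like pattern are those of highest Pearson correlation of log2(RPKM + 1). Alternatives were a pseudocount of 0.1, no filter on low values, quantile normalization, centring on the library median, a fit of the compared groups only, the replicate number as a block, and leaving out each library.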

Additional observations from a re-analysis of the deposited data

How the results depend on the processing

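Of the log2 fold changes given for the members, those with a p-value kept their direction under the alternatives. Without Con replicate 3, Igf2r in STZ against Con went from -0.07 to 0.01 and Phlda2 in A10 against Con from 0.07 to -0.07, both values with no p. With main counts of 1, 0 and 0, the members called in STZ against Con became 0 in a fit of those groups only and ranged from 0 (without Con replicate 2) to 1 when single libraries were left out. The main count of 1 was Phlda2, chosen because of that call, so it is a description only. In STZ-A10 against A10 the count became 1 with quantile normalization, median centring and a fit of those groups only. That member was Peg3, which passed the filter in part through STZ-A10. In A10-FMT against Con-FMT it ranged from 0 to 1, Igf2r without A10-FMT replicate 2, when single libraries were left out. In the other comparisons it was 0 under every alternative. The number of all genes called moved more, from 21 to between 0 and 234 in STZ against Con, from 7 to between 1 and 66 in STZ-A10 against A10, from 0 to between 0 and 2625 in A10-FMT against Con-FMT, and from 1 to between 1 and 87 in A10-FMT against STZ. It ran from 1 to 21 in A10 against Con and from 1 to 6 in STZ-A10 against STZ and in Con-FMT against STZ (main counts 1). The causes were not tested.

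With 3 libraries per group, and Phlda2 resting on an estimated 1 to 7 reads in the Con and A10 libraries, its fold change is imprecise. Under a pseudocount of 0.1 the log2 fold change of Phlda2 was 2.89 in STZ against Con, -0.97 in STZ-A10 against STZ, -0.96 in A10-FMT against STZ and -1.41 in Con-FMT against STZ, and that of Peg3 was 0.91 in STZ against Con and 2.08 in STZ-A10 against A10. Other values over 1.5 times as large with it were those of Phlda2 in A10 against Con (0.32), STZ-A10 against A10 (1.60) and A10-FMT against Con-FMT (0.45), of Peg3 in STZ-A10, A10-FMT and Con-FMT against STZ (0.89, -1.10 and -0.92), and of Cdkn1c in A10-FMT against STZ (-1.13) and against Con-FMT (-0.83). Same-numbered libraries of different groups did not deviate together throughout (r of -0.39 to 0.57 over pairs of groups). Pairs with different numbers were not set beside them, so whether the numbers pair the samples or mark a batch was not tested. With the replicate block 1 member was called in STZ against Con, the comparison that chose Phlda2, and 0 in the other comparisons. Of all genes, 3 were called in STZ against Con with that block.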
